A study of Mus musculus with 8 samples.

Results

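Untreated MMTV-PyMT mammary tumours of the first transplant passage were set against untreated tumours of the second, which are 4 of the 16 tumours measured. The tumours were chosen by their labels alone: those marked as passage 1 controls and those marked as passage 2 controls, with 2 tumours in each group. MMTV-PyMT mice carry the polyoma middle T oncogene under the mouse mammary tumour virus promoter, which is active mainly in the mammary epithelium, and they develop mammary carcinomas that resemble luminal tumours early and lose luminal features as they advance. Pieces of such tumours were placed in the mammary gland of wild-type FVB mice, RNA was taken from tumour fragments, and each tumour was hybridised in 1 channel of a 2-colour Agilent array. RANK is the receptor for RANK ligand, a signal through which progesterone drives growth of the mammary epithelium, and RANK-Fc is a decoy that binds the ligand. The control tumours received no RANK-Fc in any passage, and the labels name no mock injection for them.

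A second pair of groups served to set the difference beside that of treated tumours. These were 3 passage 1 tumours with RANK-Fc, given into the peritoneum at 10 mg/kg 3 times a week, and 3 passage 2 tumours that had RANK-Fc in passage 2 and none in passage 1. The other 6 tumours of passage 2 had RANK-Fc in passage 1 and entered the fit only as further groups that inform the spread. Each tumour carries the number of a different animal, and it is not labelled which passage 1 tumour a passage 2 tumour descends from, nor how many donor tumours stand behind a passage. Passage, donor tumour and time of transplant therefore cannot be told apart, and p-values measure the spread between these tumours alone.

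In each passage, replicate 1 was labelled with Cy5 and replicate 2 with Cy3, so the dye was balanced between the passages, while within a passage dye and tumour cannot be told apart. Signal was well above background at 47.5% to 56.5% of the spots of a channel over all 16 channels, no spot was saturated, and 14125 genes were tested. Levels are normalised log2 intensities, and differences are passage 2 minus passage 1 on the log2 scale from limma with a dye term and the array as a block, each given with its standard error (SE). The threshold was a Benjamini-Hochberg adjusted p under 0.05. Epithelial markers were high in all 4 tumours: Krt18, a keratin of simple epithelia, was at 16.14 and 15.90 in passage 1 and at 16.08 and 15.63 in passage 2. Epcam, an epithelial adhesion molecule, was at 12.28 and 12.46 in passage 1 and at 11.80 and 12.13 in passage 2. Its difference of -0.38 ± 0.16 (SE) did not pass the test (adjusted p = 0.289), and none of the 14 measured genes of the tumour epithelium list did.

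The 2 tumours of a passage were more alike than tumours of different passages. Across genes, which are not independent replicates, the correlation of levels was 0.986 between the passage 1 tumours and 0.986 between the passage 2 tumours. It lay between 0.966 and 0.978 for the 4 pairs that cross passages. A difference of over 1 on the log2 scale was found for 326 genes between the passage 1 tumours and 264 between the passage 2 tumours, against 596 to 957 genes in pairs across passages.

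Of the 14125 genes, 470 passed the threshold (3.33%), 134 of them higher in passage 2 (0.949%) and 336 lower (2.38%). The groups did not overlap for any of the 470, but with 2 tumours a side they did not overlap for 47.9% of all genes tested (21.2% higher and 26.7% lower in passage 2). Before adjustment, 2186 genes had p under 0.05. The median difference over all genes was -0.02, and the median SE was 0.17. The count rests on all 4 tumours: 63 genes passed without passage 1 replicate 1, 91 without passage 1 replicate 2, 192 without passage 2 replicate 1 and 11 without passage 2 replicate 2. All 470 kept their direction in each of these 4 fits. Of the 75 genes that passed and were picked by the rule for naming genes, 7 also passed with any 1 of the 4 tumours left out, namely Tesc, Pip, Slc39a8, Dll1, Esm1, Ahr and Cpd, and 29 passed in none of those 4 fits. Under the 12 settings that leave out no tumour, Car6 and Timp3 passed in 7, and Lrp6 and Spry2 in 8. For single genes, an exact permutation test of 2 tumours against 2 cannot give a two-sided p below 0.333.

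**Figure D1:**
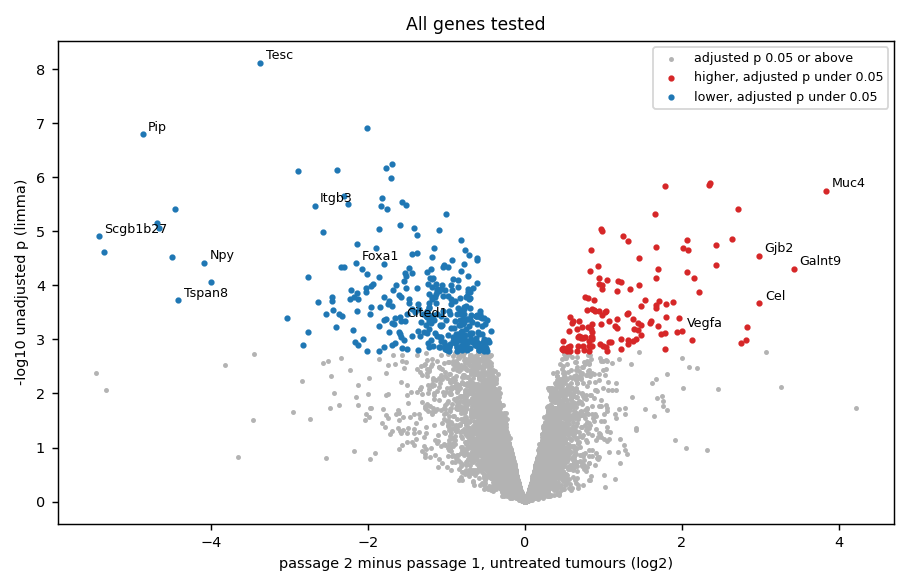
Difference between untreated tumours of passage 2 and passage 1 on the log2 scale (x axis) against the -log10 of the unadjusted limma p (y axis), 1 point per gene for 14125 genes. Coloured points are the 134 genes higher (red) and 336 lower (blue) in passage 2 at an adjusted p under 0.05; Tesc has the smallest p.

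The largest differences were losses of genes for small secreted proteins. Secretoglobins are small proteins released by exocrine and mucosal glands, and in the mouse many of them are encoded by a cluster of near-identical copies. Probes for such copies can take up each other's transcripts, so the values below are of the family and are uncertain for any single gene. The sequences upstream of 2 of them are shown because they lead the list, though likeness there does not show how alike the transcripts are. They are the 250 bases before the RefSeq start of each gene (build GRCm38.p6, plus strand, chr7:34021231-34021480 and chr7:34095181-34095430), with the longest run that both share, 67 bases, in capitals.
Scgb1b27: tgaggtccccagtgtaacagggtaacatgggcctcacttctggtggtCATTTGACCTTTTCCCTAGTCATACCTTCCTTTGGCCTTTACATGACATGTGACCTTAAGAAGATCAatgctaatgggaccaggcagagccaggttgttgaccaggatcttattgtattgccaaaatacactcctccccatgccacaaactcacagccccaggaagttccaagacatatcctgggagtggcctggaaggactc
Scgb1b30: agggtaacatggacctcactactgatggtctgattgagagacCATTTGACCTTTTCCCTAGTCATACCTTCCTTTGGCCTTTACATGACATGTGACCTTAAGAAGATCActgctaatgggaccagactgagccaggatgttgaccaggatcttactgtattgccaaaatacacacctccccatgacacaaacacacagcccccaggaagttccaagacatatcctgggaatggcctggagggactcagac
In a local alignment these windows matched at 219 of 246 aligned columns (89.0%). The windows of Scgb2b2 and Scgb2b20, of the partner family, matched at 174 of 220 columns (79.1%).

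Scgb1b27 was at 10.14 and 14.17 in the passage 1 tumours and at 6.83 and 6.74 in the passage 2 tumours. It fell by 5.43 ± 0.78 (SE, adjusted p = 0.00487), although the passage 1 tumours themselves lay far apart. Scgb1b30 was at 11.45 and 15.07 in passage 1 and at 8.28 and 6.97 in passage 2, a difference of -5.36 ± 0.82 (SE, adjusted p = 0.00695), while another probe of the gene gave -0.96. Replicate 2 of passage 1 held the higher level of both genes. Scgb2b2 was at 13.41 and 15.26 in passage 1 and at 9.21 and 10.57 in passage 2. Of 13 secretoglobin genes tested, a family singled out after its values were seen, 8 fell and none rose, against 2.38% of all genes lower. The 5 others lay between -0.61 (Scgb2b26) and 0.50 (Scgb1b7). In the 7 with the largest falls, passage 1 replicate 2 was above replicate 1 each time. Without that tumour the difference was -3.81 for Scgb1b27, -3.91 for Scgb1b30, -3.04 for Scgb1b3 and -2.50 for Scgb1b20, and without passage 1 replicate 1 it was -7.04, -6.82, -5.95 and -5.50.

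Pip, Car6 and Npy were also among the 15 largest falls. Pip, the prolactin-induced protein of apocrine secretions, was at 9.69 and 12.48 in passage 1 and at 5.95 and 6.59 in passage 2, where 1 of 2 tumours was above background. It fell by 4.87 ± 0.47 (SE, adjusted p = 0.000758). Car6, a secreted carbonic anhydrase, was at 13.23 and 15.99 in passage 1 and at 11.65 and 12.37 in passage 2 (-2.82 ± 0.68, adjusted p = 0.0441). Npy, which encodes the signalling peptide neuropeptide Y, was at 11.17 and 9.92 in passage 1. It was not well above background in either passage 2 tumour. The fitted difference was -4.09 ± 0.66 (SE, adjusted p = 0.00882), or 17.0-fold. Group means set against the dimmest signals above background on those arrays gave 20.9-fold. This is more than the fit gave, so it is no strict lower bound. Without passage 1 replicate 2 the difference was -3.90 for Pip and -1.61 for Car6, and without passage 1 replicate 1 it was -5.84 and -4.03. In these genes no passage 2 tumour reached the lower passage 1 tumour, as in every gene that passed and fell.

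Tesc, which encodes the calcium-binding protein tescalcin, had the smallest p of all genes. It was at 12.08 and 12.30 in passage 1 and at 8.69 and 8.86 in passage 2, and fell by 3.37 ± 0.25 (SE, adjusted p = 0.000108). The tumours of a passage differed by far less than the passages. Tspan8, a tetraspanin found on luminal progenitor cells, was at 10.91 and 11.02 in passage 1 and at 6.60 and 6.50 in passage 2, where 1 of 2 tumours was well above background (-4.42 ± 0.85, adjusted p = 0.0167). Slc39a8, a zinc and manganese importer, was at 9.93 and 10.91 against 7.27 and 7.54 (-2.89 ± 0.32, adjusted p = 0.00157). Cldn10, a tight junction claudin, was above background in no passage 2 tumour. Against the dimmest signals above background, the mean of both passage 1 tumours was 6.15-fold higher, which is no strict lower bound. Its fitted difference of -2.76 was -2.07 without passage 1 replicate 2 and -3.46 without passage 1 replicate 1. These fitted values are uncertain, as they use passage 2 levels below background. Cpd, a carboxypeptidase of the secretory pathway, was at 11.37 and 11.81 against 9.66 and 9.62 (-2.01 ± 0.19, adjusted p = 0.000758), and another probe gave -1.22.

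**Figure D2:**
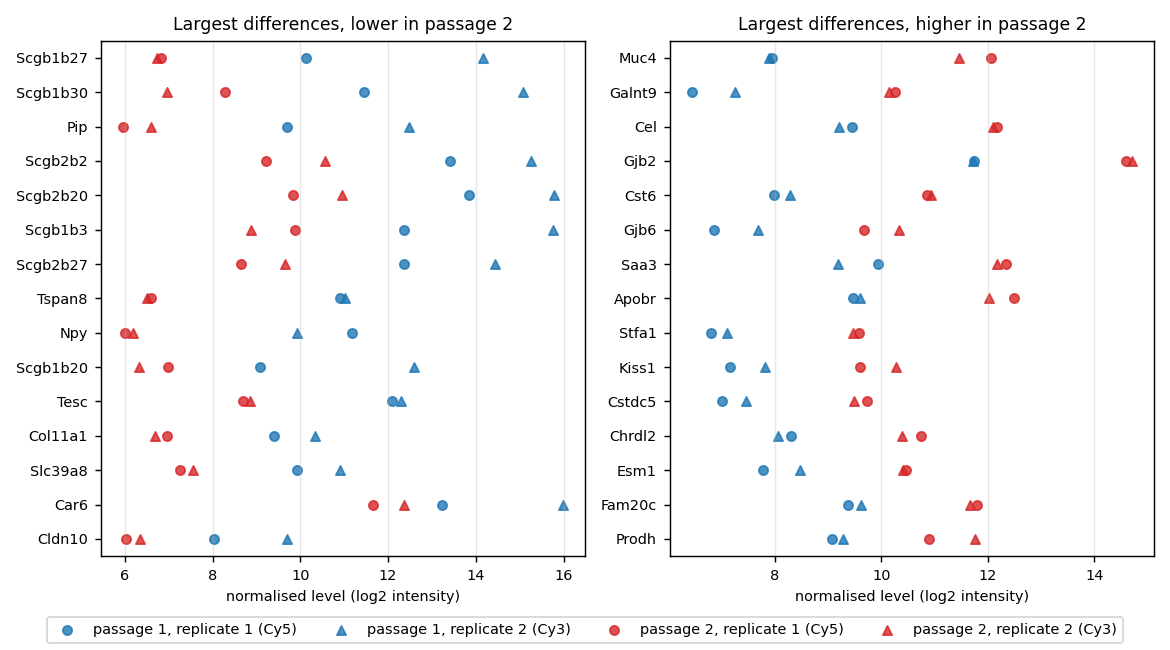
Normalised log2 intensity (x axis) of the 15 genes with the largest falls (left) and the 15 with the largest rises (right) that passed the threshold, in each of the 4 untreated tumours. Blue is passage 1 and red passage 2, circles are replicate 1 (Cy5) and triangles replicate 2 (Cy3). The colours do not overlap in any row, which the choice of genes required, and the secretoglobins spread widely within passage 1.

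Some markers of luminal cells fell in passage 2. In the mammary gland, hormone-sensing luminal cells carry the oestrogen and progesterone receptors, while luminal progenitors give rise to the milk-secreting cells. Of 12 measured genes of the hormone-sensing list, 10 were lower and 3 of these fell, where 2.38% of all genes tested fell, and the median difference of the list was -0.34. Foxa1, a pioneer factor for the oestrogen receptor, was at 8.43 and 8.37 in passage 1 and not well above background in passage 2. Its fitted difference was -2.15 ± 0.35 (SE, adjusted p = 0.00882). Group means set against the dimmest signals above background gave 4.20-fold. This is the plain difference of group means (-2.07), as neither passage 2 level lay below those signals, so it is no strict lower bound. Cited1, a transcriptional co-regulator of hormone-sensing cells, was at 9.04 and 9.46 in passage 1 and at 7.97 and 7.45 in passage 2 (-1.58 ± 0.33, adjusted p = 0.0249). Tbx3, a T-box factor of the same cells, differed by -1.09 ± 0.25 (SE, adjusted p = 0.0373). Levels of these genes did not overlap between the passages, which holds for all 470 genes that passed. Of all genes tested, 26.7% were lower without overlap.

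Of 12 luminal progenitor genes, 8 were lower, 3 of them fell and none rose, against 2.38% and 0.949% of all genes, with a median of -0.46. Besides Tspan8, Itgb3, an integrin subunit of luminal progenitors, was at 11.67 and 11.76 in passage 1 and at 9.04 and 8.79 in passage 2 (-2.68 ± 0.34, adjusted p = 0.00247), and another of its probes gave -0.85. Kit, a receptor tyrosine kinase on these cells and on mast cells, was at 12.68 and 12.68 against 11.45 and 11.65 (-1.13 ± 0.26, adjusted p = 0.0362). Among 15 basal and myoepithelial genes, 11 were lower and 4 higher, with a median of -0.14, and 2 fell, against 2.38% of all genes. The 2 that fell were Oxtr, the oxytocin receptor that makes myoepithelial cells contract (-2.08 ± 0.34, adjusted p = 0.00946), and Itgb4, an integrin subunit of hemidesmosomes (-1.19 ± 0.19, adjusted p = 0.0076). Other members differed little, such as Acta2 (-0.13) and Krt14 (0.02), and Krt17 was higher (1.16 ± 0.47, adjusted p = 0.242). In bulk tumour pieces, fewer cells of a type and less RNA per cell cannot be told apart.

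Among the genes that were higher in passage 2, Muc4 led. Muc4 is a membrane mucin that binds ErbB2, and its levels of 7.95 and 7.90 in passage 1 stood against 12.06 and 11.46 in passage 2. It rose by 3.84 ± 0.46 (SE, adjusted p = 0.0021), while another probe of the gene gave 1.27. Galnt9, an enzyme that starts the O-linked sugar chains of mucins, was at 6.44 and 7.25 against 10.26 and 10.14 (3.43 ± 0.57, adjusted p = 0.00946). In passage 1 it was well above background in 1 of 2 tumours. Its difference was 2.58 to 4.27 with 1 of the 4 tumours left out. Gjb2, a gap junction connexin, was at 11.74 and 11.72 in passage 1 and at 14.59 and 14.71 in passage 2 (2.99 ± 0.47, adjusted p = 0.00746). A related connexin gene, Gjb6, was at 6.86 and 7.69 against 9.67 and 10.33 (2.82 ± 0.66, adjusted p = 0.0394). The tumours of each passage lay close together in Gjb2 and further apart in Gjb6.

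Other large rises were of genes with differing roles. Cst6, a cystatin that inhibits proteases, rose by 2.83 ± 0.62 (SE, adjusted p = 0.0291), and the stefin-type genes Stfa1 and Cstdc5 by 2.64 ± 0.38 (SE) and 2.44 ± 0.36 (SE), with adjusted p of 0.00523 and 0.00617. Stefins are near-identical copies, so these values are of the family. Saa3, an acute phase protein, was at 9.94 and 9.19 against 12.35 and 12.17 (2.76 ± 0.66, adjusted p = 0.0414). Kiss1, the kisspeptin gene, was at 7.15 and 7.81 against 9.60 and 10.28 (2.44, with another probe at 1.78). Chrdl2, a chordin-like antagonist of BMPs, was at 8.31 and 8.06 against 10.74 and 10.38. Esm1, a proteoglycan that endothelial cells release in response to VEGF, was at 7.78 and 8.47 in passage 1 and at 10.46 and 10.41 in passage 2 (2.35 ± 0.27, adjusted p = 0.00184). Ahr, the aryl hydrocarbon receptor, was at 10.94 and 11.16 against 13.08 and 12.62 (1.79 ± 0.21, adjusted p = 0.00184), and another probe gave 0.96.

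Milk protein genes were mostly higher in passage 2, but few passed the test. Of 19 measured, 13 were higher, the median difference was 0.85, 1 rose and 1 fell. The one that rose was Cel, the bile salt-stimulated lipase of milk, at 9.44 and 9.20 in passage 1 and 12.17 and 12.10 in passage 2 (2.99 ± 0.58, adjusted p = 0.0178), and the one that fell was Pip. The caseins are the main proteins of milk. Csn2, beta-casein, was at 9.90 and 9.12 in passage 1 and at 13.28 and 13.79 in passage 2, but with an SE of 1.56 its difference of 4.22 did not pass (adjusted p = 0.196). Wap, whey acidic protein, was at 14.02 and 13.65 against 15.91 and 15.92 (2.09 ± 0.58, adjusted p = 0.0732). Lalba, a subunit of lactose synthase, was at 15.24 and 14.34 against 16.57 and 15.80 (1.69 ± 0.58, adjusted p = 0.157). The levels of these 3 genes were higher in both passage 2 tumours, as they were for 21.2% of all genes. The SE of Csn2 carries the spread of all 6 groups. Squamous and cornified envelope genes were higher in 10 of 10 measured, with a median of 0.54, and none passed.

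Some genes that cells switch on when oxygen is low rose in passage 2, and others did not. Hypoxia-inducible factors bind DNA at a short core sequence and turn on genes of glycolysis, vessel growth and pH control. Of 31 measured genes of the hypoxia and glycolysis list, 25 were higher, 6 rose against 0.949% of all genes higher, and none fell. The median difference of the list was 0.58, against -0.02 over all genes, and 0.35 without passage 1 replicate 1. Vegfa, the main growth factor for vessels, was at 9.31 and 9.73 in passage 1 and at 11.91 and 11.32 in passage 2 (2.00 ± 0.45, adjusted p = 0.0322), and another of its probes gave 1.91. Ndrg1, a stress-responsive gene, was at 11.75 and 11.45 against 13.60 and 13.23 (1.89 ± 0.36, adjusted p = 0.0175). P4ha2, a collagen prolyl hydroxylase, was at 9.05 and 9.17 against 10.94 and 10.80 (1.67 ± 0.33, adjusted p = 0.0189). Pdk1, the kinase that shuts pyruvate out of mitochondria, was at 8.46 and 8.54 against 9.50 and 9.45 (0.94 ± 0.17, adjusted p = 0.0128). The 2 other genes that rose were Ankrd37, by 1.78 ± 0.40 (SE), and Adm, which encodes the vasodilator adrenomedullin, by 2.12 ± 0.50 (SE). With any 1 of the 4 tumours left out, none of Vegfa, Ndrg1, P4ha2 and Pdk1 passed.

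Other members stayed short of the threshold. Slc16a3, a lactate exporter, was at 8.64 and 8.61 in passage 1 and at 10.95 and 10.41 in passage 2 (2.00 ± 0.52, adjusted p = 0.0584). Slc2a1, a glucose transporter, differed by 0.67 ± 0.27 (SE, adjusted p = 0.245), and Car9, a carbonic anhydrase often used as a hypoxia marker, by -0.22 ± 0.35 (SE, adjusted p = 0.841). Hk1, a hexokinase, was lower (-0.62 ± 0.19, adjusted p = 0.117). The mean level of the list was 11.19 and 11.32 in the passage 1 tumours and 12.04 and 11.83 in the passage 2 tumours.

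**Figure D3:**
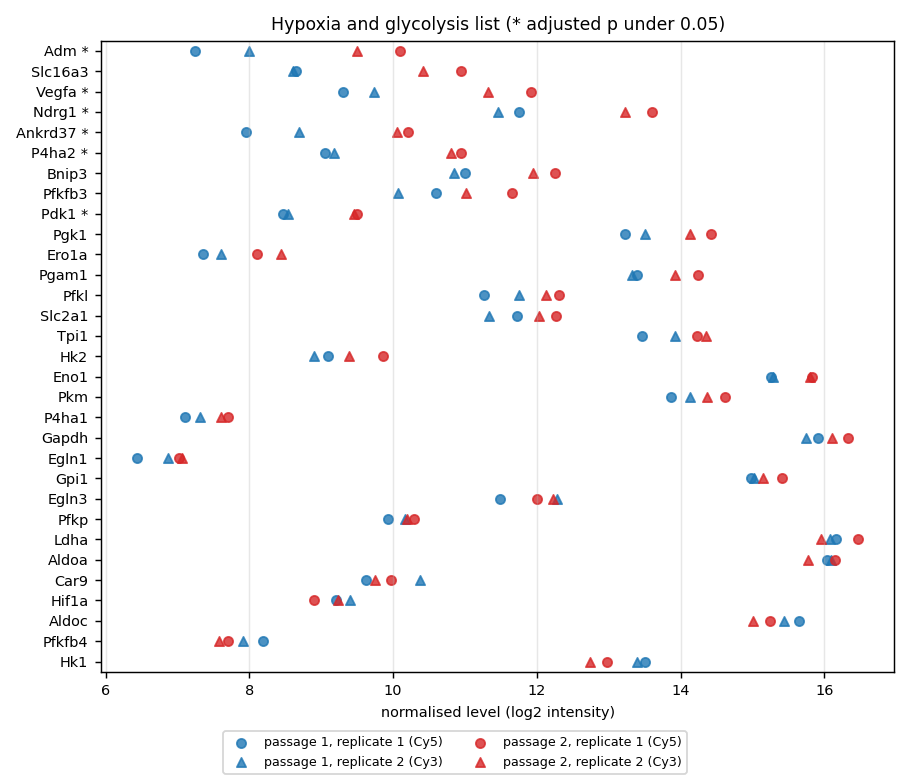
Normalised log2 intensity (x axis) of the 31 measured genes of the hypoxia and glycolysis list in each of the 4 untreated tumours, ordered by the difference, with passage 1 in blue and passage 2 in red. The 6 genes with an asterisk passed the threshold. All 6 are higher in both passage 2 tumours than in both passage 1 tumours, as was every gene that passed and rose.

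Promoters of 2 of the risen genes are shown, since the core that hypoxia-inducible factors bind can be found in them. They are the 250 bases before the RefSeq start of P4ha2 (GRCm38.p6, chr11:54100674-54100923, plus strand) and of Ankrd37 (chr8:45999851-46000100, minus strand), with each ACGTG, read on both strands, in capitals.
P4ha2: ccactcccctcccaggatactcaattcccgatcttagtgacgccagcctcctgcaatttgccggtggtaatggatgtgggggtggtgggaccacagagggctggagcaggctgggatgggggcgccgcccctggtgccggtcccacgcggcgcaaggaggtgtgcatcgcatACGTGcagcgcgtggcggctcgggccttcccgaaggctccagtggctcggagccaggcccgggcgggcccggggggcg
Ankrd37: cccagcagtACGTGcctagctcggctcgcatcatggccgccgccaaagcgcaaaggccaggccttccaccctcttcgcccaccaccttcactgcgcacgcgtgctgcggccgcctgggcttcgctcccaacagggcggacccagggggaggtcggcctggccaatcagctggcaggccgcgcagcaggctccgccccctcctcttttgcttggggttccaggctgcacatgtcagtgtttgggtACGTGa
The core begins 78 bases before the start of P4ha2, and 241 and 6 bases before that of Ankrd37. In windows from 250 bases before to 50 after a start, 19.6% of all 32851 windows held ACGTG on either strand. Counted by gene, it was held by 28.0% of the 11198 tested genes with a window, by 22 of 30 hypoxia and glycolysis genes and by 3 of the 5 risen ones with a window. A match describes the letters and shows no binding.

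Few members of each signalling list passed. Their counts stand against 2.38% of all genes tested that fell and 0.949% that rose. In the Notch pathway, which sets cell fate between neighbouring cells, 2 of 14 measured genes fell and none rose (2.38% and 0.949% of all genes). Dll1, a ligand, was at 8.46 and 8.63 in passage 1 and at 6.85 and 6.86 in passage 2 (-1.70 ± 0.18, adjusted p = 0.00157). Hey1, a repressor that Notch turns on, was at 12.27 and 12.96 against 9.98 and 10.14 (-2.45 ± 0.47, adjusted p = 0.017). In the Wnt pathway, 3 of 25 genes fell and 1 rose (2.38% and 0.949% of all genes). The receptor gene Fzd1 (-1.19 ± 0.20, SE), the co-receptor gene Lrp6 (-0.85 ± 0.19, SE) and Sfrp1, a secreted inhibitor (-0.86 ± 0.21, SE), fell, with adjusted p of 0.00946, 0.0351 and 0.0458. Another probe of Lrp6 gave -0.29. Axin2, a target and inhibitor of the pathway, was not well above background in passage 1 and at 7.64 and 8.04 in passage 2. Its fitted difference was 1.45 ± 0.26 (SE, adjusted p = 0.0128), or 2.735-fold, while another of its probes gave 0.42. Group means set against the dimmest signals above background gave 2.90-fold, which is no strict lower bound. Over the settings that leave out no tumour the difference ranged from 0.93 to 4.10.

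Among 19 ErbB and FGF signalling genes, 2 fell and 1 rose (2.38% and 0.949% of all genes). Nrg2, an ErbB ligand, fell by 2.31 ± 0.28 (SE, adjusted p = 0.00243), with another probe at -0.35. In passage 2 it was well above background in 1 of 2 tumours, and its difference ranged from -3.91 to -1.33 over other settings. Spry2, a feedback inhibitor, fell by 0.62 ± 0.15 (SE, adjusted p = 0.0439). Fgfr3, an FGF receptor, was at 8.81 and 8.27 against 10.14 and 10.54 (1.79 ± 0.35, adjusted p = 0.0183), with another probe at 0.55. Of 22 immediate early genes, the nuclear receptor gene Nr4a1 (-1.48 ± 0.24, SE) and Dusp6, a phosphatase that ERK signalling induces (-1.44 ± 0.29, SE), fell, while Myc rose by 0.75 ± 0.19 (SE, adjusted p = 0.0483). Myc passed in 4 of 12 other settings and in 0 of the 4 fits with a tumour left out. On the matrix remodelling list, the protease gene Mmp7 rose by 1.61 ± 0.34 (SE, adjusted p = 0.0249). The protease gene Adamts1 (-1.48 ± 0.29, SE) and Timp3, an inhibitor of metalloproteinases (-1.50 ± 0.37, SE), fell, with adjusted p of 0.0178 and 0.0478. No gene of the proliferation list passed. Its median was 0.16, but -0.02 without passage 2 replicate 2 and -0.04 with median centring of the arrays. Its mean level was 10.36 and 10.42 in passage 1, and at 10.30 passage 2 replicate 1 lay below both of these, while passage 2 replicate 2 lay above them.

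RANK itself was not among the genes that passed. Tnfrsf11a, which encodes RANK, was at 11.88 and 11.81 in passage 1 and at 12.61 and 12.61 in passage 2, a difference of 0.85 ± 0.22 (SE, adjusted p = 0.0606). Both passage 2 tumours were above both of passage 1, as for 21.2% of all genes. Tnfrsf11b, which encodes the natural decoy osteoprotegerin, was at 7.17 and 7.16 against 7.85 and 7.04 (0.17 ± 0.45, adjusted p = 0.904). Tnfsf11, the ligand gene, had no probe that was kept, so it was not tested. No gene of the 18 measured on the RANK pathway list passed, with 14 lower and a median of -0.12.

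Genes of other cell types in the tumour pieces varied between tumours. The fibroblast list was lower in passage 2 in 17 of 18 genes, with a median of -0.94, and none passed. Its mean level was 11.18 and 10.92 in passage 1 and 10.29 and 9.79 in passage 2. Postn, periostin, was at 12.03 and 11.45 against 9.87 and 9.79 (-1.81 ± 0.68, adjusted p = 0.2). Of 19 collagens, Col11a1 fell, from 9.40 and 10.34 to 6.97 and 6.69 (-3.04 ± 0.64, adjusted p = 0.0241), and the median of the list was -0.63, or -0.40 without passage 1 replicate 1. In adipocytes, cells of the fat pad around the graft, 15 of 16 genes were lower with a median of -1.13 and none passed. Without passage 1 replicate 1 that median was -0.19, and without passage 1 replicate 2 it was -2.13. Their mean level was 10.33 and 8.15 in passage 1 and 8.85 and 7.56 in passage 2, so the tumours overlapped. Adipoq, adiponectin, was at 11.17 and 8.12 against 8.51 and 6.75.

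The interferon response list, genes that interferons switch on against viruses, split the tumours within each passage and not between them. Its mean level was 11.61 and 9.94 in passage 1 and 11.37 and 9.67 in passage 2, with replicate 1 the higher each time. The median difference over its 26 genes was -0.38, and none passed. That median was 0.23 without passage 1 replicate 1, 0.22 without passage 2 replicate 2, -0.96 without passage 1 replicate 2 and -0.94 without passage 2 replicate 1. MHC class I and antigen processing genes were at 13.75 and 12.82 in passage 1 and 13.76 and 12.76 in passage 2, the same split. Replicate 1 carried Cy5 in both passages. Among the 12 tumours of the other 4 groups, the interferon list averaged 10.51 in the 6 with Cy5 and 10.63 in the 6 with Cy3. Whether the dye has a part in the split was not tested. Levels of the T and NK cell list were 8.46 and 7.63 in passage 1 and 8.47 and 7.92 in passage 2.

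**Figure D4:**
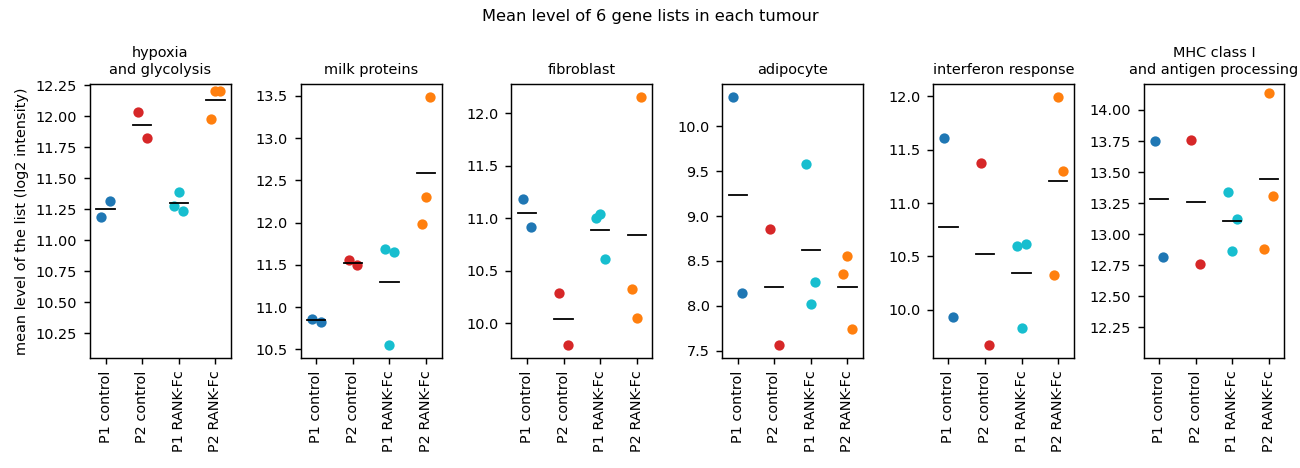
Mean normalised log2 intensity (y axis, each panel with its own range) of 6 gene lists in untreated (control) and RANK-Fc tumours of passage 1 (P1) and passage 2 (P2). Each point is 1 tumour and each bar the group mean; the hypoxia list separates the passages, while the interferon and MHC class I lists separate the 2 tumours of each untreated group.

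The same passage difference was then taken in tumours that had RANK-Fc in the current passage, which share no tumour with the untreated comparison. Both comparisons came from 1 fit with 1 estimate of the spread per gene, so passing in both is not independent. With the RANK-Fc groups fitted alone, 251 of the 470 genes passed there in the same direction. There 891 genes passed (6.31%), 332 of them higher (2.35%) and the others lower (3.96%). All 134 genes higher in untreated passage 2 tumours were also higher with RANK-Fc, and 101 of them passed there (75.4%, which is 30.4% of those that rose with RANK-Fc). All 336 lower genes were lower with RANK-Fc, and 261 passed (77.7%, or 46.7% of those that fell there). The share of all genes tested with the same direction in both comparisons was not counted. The median difference of the higher genes was 1.12 in untreated and 0.84 in RANK-Fc tumours, and that of the lower genes -1.07 and -0.76. The genes were chosen for their size in the untreated tumours, so their smaller medians with RANK-Fc cannot be read as an effect of treatment. Of the 6 RANK-Fc tumours, 2 lay on an array with an untreated tumour. Without those 2, 126 genes passed in RANK-Fc tumours, and 468 of the 470 genes kept their direction, 92 of them past the threshold.

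**Figure D5:**
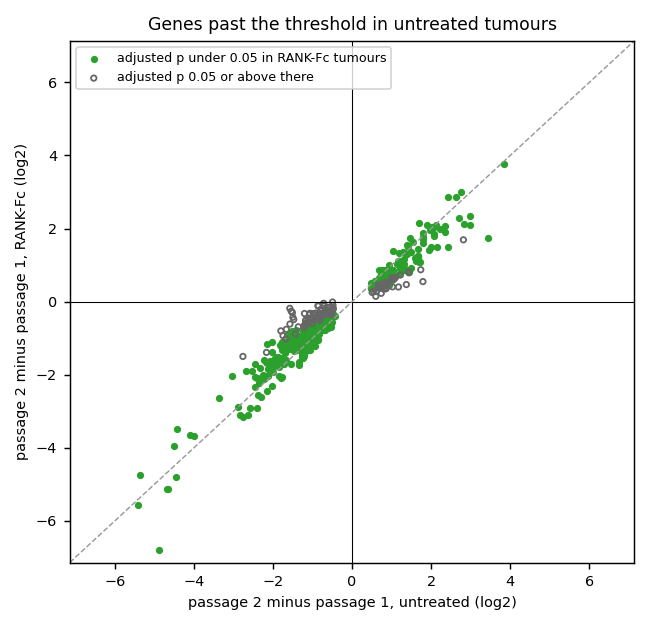
Passage 2 minus passage 1 in untreated tumours (x axis) against the same difference in RANK-Fc tumours (y axis), both on the log2 scale, for the 470 genes that passed the threshold in untreated tumours. Filled points also passed with RANK-Fc, the dashed line marks equal differences, and every point lies below 0 on both axes or above 0 on both axes.

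Values of single genes can be set side by side. Muc4 differed by 3.84 ± 0.46 (SE) in untreated and 3.78 ± 0.36 (SE) in RANK-Fc tumours, and Tesc by -3.37 ± 0.25 (SE) and -2.65 ± 0.19 (SE). Pip differed by -4.87 ± 0.47 (SE) and -6.80 ± 0.37 (SE). On the hypoxia list 15 of 31 genes rose with RANK-Fc, against 2.35% of all genes, with a median of 0.78. Among them were Slc2a1 (1.17, adjusted p = 0.00929) and Slc16a3 (1.98, adjusted p = 0.015). Of 19 milk protein genes 7 rose with RANK-Fc, against the same 2.35% of all genes. Among them were Csn2 (5.18, adjusted p = 0.027) and Wap (1.70, adjusted p = 0.0441). Tnfrsf11a also rose there, by 0.75 ± 0.17 (SE, adjusted p = 0.0257). The fibroblast list had a median of -0.01 there, with its mean level in passage 2 replicate 3 at 12.16 and in the 2 others at 10.33 and 10.05.

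Whether the passage difference itself differed with RANK-Fc was tested by the interaction. With limma 0 genes passed the adjusted threshold (0%, with 0 in either direction), and 255 genes had an unadjusted p under 0.05. The smallest p was that of Armcx3, a mitochondrial outer membrane protein, which fell by 1.51 ± 0.19 (SE) in untreated tumours and differed by -0.30 ± 0.15 (SE) with RANK-Fc (unadjusted p = 0.000192), with another probe at -0.72 in untreated tumours. Cryab, a small heat shock protein, differed by -1.21 ± 0.21 (SE) and -0.33 ± 0.16 (SE) (unadjusted p = 0.00439), and Fgfr3 by 1.79 ± 0.35 (SE) and 0.55 ± 0.27 (SE) (unadjusted p = 0.0126). A p that misses the threshold does not show that the differences were equal.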

How the data were processed

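Array images had been turned into values by Agilent Feature Extraction 10.7.3.1, as the submitters' processing notes and the deposited headers state. Each deposited file gives linear median spot intensity and local background intensity in both dyes, still unscaled across arrays, per the file headers. Columns of processed intensity, the log10 ratio of red over green, and other quality marks coded 0 or 1 come from the same software, per the file headers. The deposited normalised values of the whole series have 8 columns that match no label and were not used. All 8 arrays share 1 slide and 1 scan time. The log10 ratio correlated with red over green at r from 0.670 to 0.854 on every array.

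Of 55681 probes, 28026 could be given a gene symbol. Median intensities were corrected by normexp (offset 50), normalised by loess within and Aquantile between arrays, on the log2 scale; spots marked as uneven, 239 to 337 per array, were set to missing. Probes were kept where some group had all its tumours well above background, and each gene was represented by its brightest kept probe. All 16 channels were fitted with limma 3.58.1 in R 4.3.3 (statmod 1.5.0, jsonlite 2.0.0, version 1.17.8 of data.table), with 6 group means, a dye term and the array as a block at an intraspot correlation of 0.229. That value corrects the estimate of 0.306 by simulation. Residual degrees of freedom were 9. Python 3.11.15, matplotlib 3.10.9, pandas and Biopython served figures and sequences. Arrays limit the precision by their number.

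Named genes were the 15 largest rises and the 15 largest falls past the threshold, up to 4 members per list by p (2 where none passed), a fixed set of RANK and epithelial genes, and the 5 smallest p in each direction of the other 2 comparisons. List members given beyond this rule, and the secretoglobin family, were chosen after their values were seen. Not every gene the rule picks is reported here. Samples, lists and tests were chosen with earlier results of these data known. In a simulation of 14125 genes for the untreated comparison, normal noise was drawn with the variances and intraspot correlation of the fit itself. On the log2 scale, 79% of 100 genes changed by 1 and 92% of 100 changed by 2 were called. Unchanged genes made up 9 of 180 calls. No donor or transplant differences were simulated, so the error rate in these tumours is not shown by it.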

Additional observations from a re-analysis of the deposited data

How the results depend on the processing

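All of the 470 genes that passed between untreated passages kept their direction under every other processing in which they were tested, 393 of them where every channel had to be above background. The count was 266 with median centring, where the median of all genes moved to -0.15 and 18.4% of the calls were higher in place of 28.5%, and 307 without the dye term. The other settings gave 370 to 584, the last with the 4 tumours fitted alone, where only 280 of the 470 passed. With 1 tumour left out it ranged from 11 to 192, the lone tumour being assumed to vary like the other groups. For RANK-Fc tumours the count of 891 became 409 with median centring, 444 with the groups fitted alone and 126 without the 2 tumours that share an array with an untreated one, and it ranged from 282 to 1058 with 1 tumour left out. For the interaction the count was 0 under every setting except 1 or 2 genes in 2 of the 10 fits with 1 tumour left out, so it ranged from 0 to 2. Of the 75 genes that passed and were picked by the rule for naming genes, 32 passed in all 12 settings that leave out no tumour, and another 9 passed in the 11 in which they were tested. No paired analysis was possible because the labels give no replicate numbers. Dim probes, such as those of Foxa1, Npy and Axin2, leave the level in the group below background uncertain. For Npy and Axin2 the fold against the dimmest signals exceeded the fitted fold, so neither is a strict lower bound. Those of Foxa1 and Cldn10 are no strict lower bounds either.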
